A study of Mus musculus with 460 samples.

Results

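Laminins and their partners are represented here by 10 of the 48440 genes in the deposited table, taken by symbol: the laminin chain genes Lama2, Lama4, Lama5, Lamb1, Lamb2 and Lamc1, the nidogens Nid1 and Nid2, and the heparan sulfate proteoglycans Hspg2 (perlecan) and Agrn (agrin). All 10 were found and all 10 exceeded the floor of 10 CPM (counts of a gene scaled to 1000000 counts in all) used for comparisons. The basement membrane is a thin sheet of matrix on which epithelium, endothelium, muscle and nerve rest and which also wraps the pericytes of small vessels. Each laminin is a trimer of an alpha, a beta and a gamma chain. Laminin trimers polymerise on the cell surface, where they bind integrins and dystroglycan. Nidogens and the proteoglycans link laminins to a network of type IV collagen.

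The data are single-cell RNA-seq of 460 cells, each a sample of its own, all with the same labels: cancer-associated fibroblasts (CAFs, written tCAFs in 1 label) from mice with lung adenocarcinoma. Every cell comes from this tumour background, and no cell from a mouse without tumours was analysed here. Age, sex, the number of mice, the way the cells were isolated and whether they were cultured are not given in the labels, so all cells count as 1 sample, no test over samples exists, and the cells were compared by size of difference only.

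The cells were split by a rule that uses none of the 10 genes. In 203 cells (44.1%, exact Clopper-Pearson 95% interval 39.5 to 48.8) the count of Rgs5, a marker of pericytes, exceeded that of Pdgfra, a fibroblast marker. The remaining 257 cells (55.9%, 51.2 to 60.5) are called the other cells, and no cell had equal counts. The median cell held 5064 CPM of Rgs5 and 260.3 CPM of Pdgfra among the Rgs5 > Pdgfra cells, against 262 and 1769 CPM among the other cells. The division is a cut through a range: in 72 cells (15.7%) one count was within 2-fold of the other, and in 318 cells the counts lay at least 4-fold apart. Depth differed, with a median of 76944 counts per cell in the Rgs5 > Pdgfra cells and 96654 in the other cells, over a range of 25029 to 240496 in all cells.

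Of 8 fibroblast markers, among them Dcn, Lum and Col1a1, at least 2 were counted in 100% of cells. At least 2 markers were also counted in 100% of cells for pericytes or vascular smooth muscle. For epithelial or lung tumour markers this share was 77.2%, and for immune markers 50.9%. Such counts therefore cannot check the label of fibroblast. The summed level of the fibroblast markers was 5712 CPM in the Rgs5 > Pdgfra cells and 11811 CPM in the other cells. The sum of 9 markers of pericytes or vascular smooth muscle was 10229.6 CPM in the Rgs5 > Pdgfra cells and 1863 CPM in the other cells. These lists include Pdgfra and Rgs5, the genes of the split, so the sums are no independent check of it. Rgs5 alone gave 4620 CPM in the Rgs5 > Pdgfra cells and 368 CPM in the other cells, and Pdgfra 409 and 1726 CPM. Markers of other cell types were also counted. Epithelial or lung tumour markers summed to 1523 CPM, immune markers to 406, endothelial markers to 94.5, mesothelial markers to 80.3 and Schwann markers to 9.61 CPM in the Rgs5 > Pdgfra cells, against 929, 153, 76.1, 42.1 and 49.4 CPM in the other cells. All but the Schwann sum were thus higher in the Rgs5 > Pdgfra cells, but the median cells lay closer for most lists. Medians there were 746 CPM for epithelial, 75.5 for immune, 13.8 for endothelial and 0 for mesothelial and Schwann markers. In the other cells they were 621, 70.1, 11.3, 0 and 7.88 CPM. The highest cell held 6216 CPM of mesothelial markers in the Rgs5 > Pdgfra cells and 887 CPM in the other cells. Of all these markers only Cdh19, in the Schwann list, had no count. Runs of neighbouring columns that lack the alveolar gene Sftpc made up 127 cells (27.6%), 31.5% of the Rgs5 > Pdgfra cells and 24.5% of the other cells. No 2 columns held identical counts, and the columns name no library or cell barcode.

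RefSeq promoters, the 250 bases before and 50 bases after a gene's start in build GRCm38.p6, were at hand for 7 of the 10 genes, with a pair of starts for Agrn and 8 promoters in all; Lama4, Lamc1 and Nid2 had no entry. The member with the largest fold between the cell sets (Agrn), another member that was higher with it (Lamb2) and the member with the lowest fold (Lama5) are shown, 5′ to 3′ on the gene's own strand, with GC boxes (GGGCGG on either strand, the site read by Sp-family factors) in capitals. The Agrn promoter is its upstream one, at chr4:156197439-156197738 on the minus strand, the Lamb2 promoter lies at chr9:108479612-108479911 on the plus strand and the Lama5 promoter at chr2:180225810-180226109 on the minus strand.
Agrn: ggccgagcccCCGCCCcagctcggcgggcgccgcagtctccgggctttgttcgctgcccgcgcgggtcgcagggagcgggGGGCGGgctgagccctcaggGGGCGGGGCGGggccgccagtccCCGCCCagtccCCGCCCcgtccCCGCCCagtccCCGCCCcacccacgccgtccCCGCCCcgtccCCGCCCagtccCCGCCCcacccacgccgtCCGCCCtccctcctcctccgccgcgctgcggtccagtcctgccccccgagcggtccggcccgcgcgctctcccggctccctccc
Lamb2: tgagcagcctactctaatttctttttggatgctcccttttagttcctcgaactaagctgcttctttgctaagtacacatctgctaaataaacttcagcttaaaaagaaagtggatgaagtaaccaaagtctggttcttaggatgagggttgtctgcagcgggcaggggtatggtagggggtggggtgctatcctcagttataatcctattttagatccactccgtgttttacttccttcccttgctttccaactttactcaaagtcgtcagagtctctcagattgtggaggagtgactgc
Lama5: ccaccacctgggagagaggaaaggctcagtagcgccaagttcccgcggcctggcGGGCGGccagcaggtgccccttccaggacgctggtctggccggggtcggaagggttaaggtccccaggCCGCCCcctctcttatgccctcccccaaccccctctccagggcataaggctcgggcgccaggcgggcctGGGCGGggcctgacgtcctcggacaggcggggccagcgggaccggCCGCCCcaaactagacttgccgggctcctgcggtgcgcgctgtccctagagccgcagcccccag
The Agrn stretch is 83.3% G and C and holds 12 GC boxes, of which neighbouring ones share at most 1 base. Lama5 is 72.7% G and C with 4 boxes, and Lamb2 is 44.0% G and C with none. Agrn and Lamb2, both higher in the Rgs5 > Pdgfra cells, thus did not share this feature, and Nid2, also higher there, could not be examined. A GC box was found in 7 of the 8 promoters, against 35.7% of the 32851 promoters in the table. The 8 promoters had a median of 64.2% G and C, against 52.7% over all promoters. The letters TGGGAA, bound by the Notch effector RBPJ, were found on either strand in 4 of the 8 (Lama2, Lamb1, Nid1 and Hspg2), against 25.6% of all promoters. The TATA box letters TATAAA were in none of the 8, against 13.6%, and an E-box (CANNTG) was in 5 of the 8, against 72.3%.

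Nid1 and Lamc1 were by far the most abundant of the 10 transcripts per length. Levels are summed over all cells, and different genes are compared only after division by kilobases of exon (CPM per kb). Nid1, whose protein bridges laminin to type IV collagen, stood at 241 CPM per kb, and Lamc1, the gamma chain shared by most laminins, at 131. Lamb1, the more widespread of the common beta chains, followed at 49.5 CPM per kb and Hspg2 at 45.1. Lama4 (37.4), Lama2 (31.1), Nid2 (30.2), Lamb2 (29.3) and Agrn (28.8 CPM per kb) came next, and Lama5 was lowest at 13.1. Counting intervals of Lama2 and Nid2, of Nid2 and Lamb2 and of Lamb2 and Agrn touched, so these neighbours could not be ordered, and in single cells the ranges of all 10 genes overlapped. With the longest transcript as the length, Lamb1 (84.9), Lama4 (74.6) and Lama2 (52.9 CPM per kb) stood above Hspg2 (45.5), while Nid1 (275), Lamc1 (142) and Lama5 (13.1) kept their places.

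The genes were measured in nearly every cell. Lama2 (ENSMUSG00000019899.15, chr10:26980036-27619758, minus strand), Lamc1 (ENSMUSG00000026478.14, chr1:153218922-153332786, minus strand) and Nid1 (ENSMUSG00000005397.7, chr13:13437551-13512269, plus strand) had at least 1 count in 100% of the 460 cells. Lama4 (ENSMUSG00000019846.11, chr10:38965515-39110188, plus strand) was counted in 99.8%, Hspg2 (ENSMUSG00000028763.17, chr4:137468769-137570630, plus strand) in 99.6% and Lamb1 (ENSMUSG00000002900.15, chr12:31265234-31329644, plus strand) in 99.1%. Lamb2 (ENSMUSG00000052911.9, chr9:108479736-108490530, plus strand) was counted in 97.8% and Agrn (ENSMUSG00000041936.18, chr4:156165290-156197488, minus strand) in 97.6%. The exceptions were Nid2 (ENSMUSG00000021806.3, chr14:19751265-19811787, plus strand), counted in 81.5% of cells (77.7 to 85.0), and Lama5 (ENSMUSG00000015647.9, chr2:180176373-180225859, minus strand), counted in 74.6% (70.3 to 78.5). These shares are at each cell's own depth; at equal depth they were 77.8% for Nid2 and 71.5% for Lama5. Coordinates span whole genes of GENCODE vM21 on build GRCm38.

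The same pair of genes varied most from cell to cell. After each cell was thinned to 56586 counts, which left 414 cells, the squared coefficient of variation beyond counting noise was 2.48 for Lama5 and 1.65 for Nid2. It was 0.158 for Lamc1, 0.175 for Nid1 and 0.228 for Lamb1, the steadiest members, and between 0.385 (Lama4) and 0.781 (Agrn) for the other five. The median of the 10 members was 0.472, beside 0.336 for the 1413 genes within the members' range of CPM and 1.16 for all 9832 genes of at least 10 CPM. The 10% of cells richest in Lama5 held 54.9% of its counts, and the 10% richest in Nid1 held 20.3% of the counts of Nid1.

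**Figure D1:**
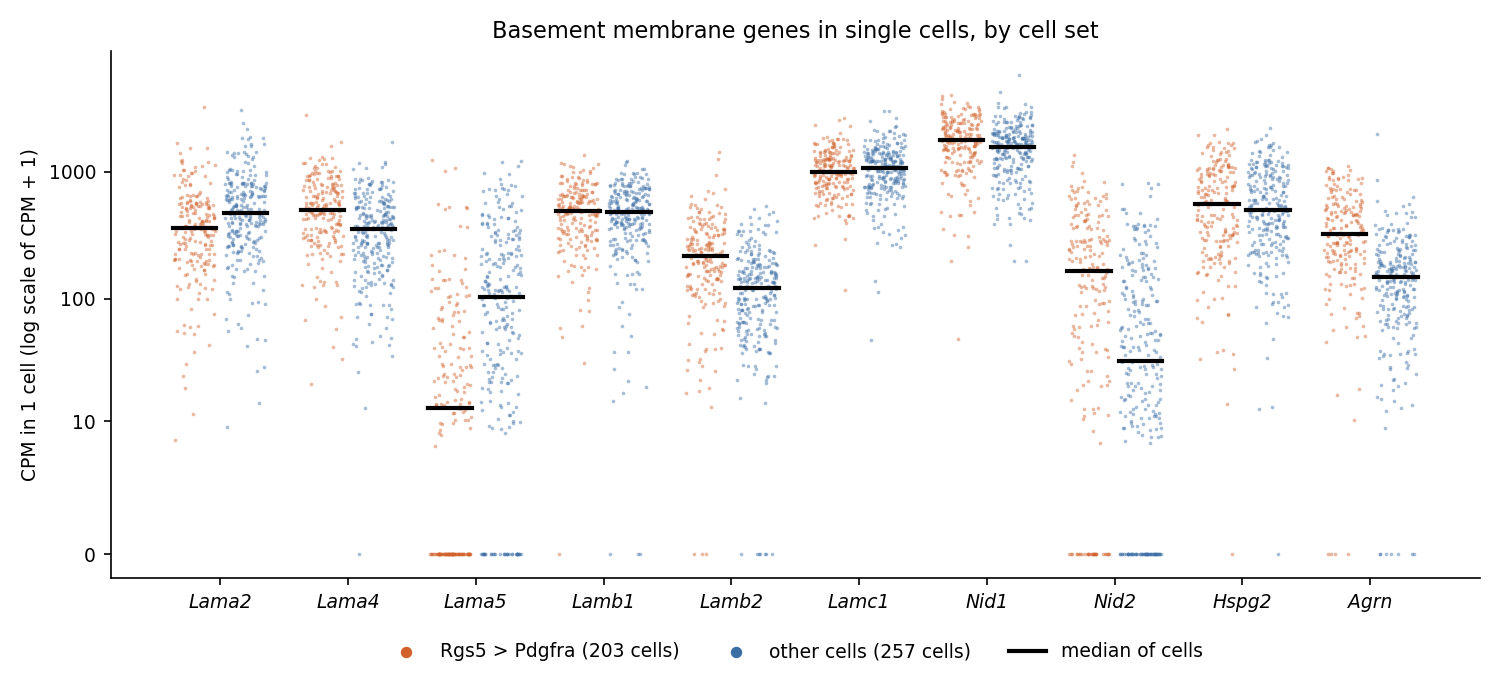
Each point is 1 cell, with its CPM on a log scale of CPM + 1, for the 203 Rgs5 > Pdgfra cells (left of each pair) and the 257 other cells (right); bars are medians of cells. The 2 sets overlap for every gene. The medians stand farthest apart for Lama5 (13.0 CPM in the Rgs5 > Pdgfra cells, 102 CPM in the other cells) and Nid2 (166 CPM in the Rgs5 > Pdgfra cells, 31.6 CPM in the other cells).

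Lama4 and Lama2 led the alpha chain transcripts, Lamb1 the beta chains and Lamc1 the gamma chains. Of the summed alpha chain level per kb in all cells, Lama4 made up 40.0%, Lama2 33.3%, Lama5 14.0%, Lama1 10.4% and Lama3 2.26%. Without the length correction Lama2 (41.5%) stood above Lama4 (36.8%), and with the longest transcript as length Lama4 made up 48.9%, Lama2 34.7% and Lama5 8.59%. Lamb1 made up 61.9% of the beta chains, Lamb2 36.6% and Lamb3 1.53%. Lamc1 made up 90.6% of the gamma chains. The summed level per kb was 93.4 for alpha, 80.0 for beta and 144 for gamma chains, so the gamma chain transcripts exceeded either of their partners.

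In composition the cell sets differed most in the alpha chains. Lama4 made up 54.2% of the alpha chain level per kb in the Rgs5 > Pdgfra cells and 32.3% in the other cells. Its ratio to Lama2 was 1.75 in the Rgs5 > Pdgfra cells and 0.934 in the other cells, so Lama4 led in the Rgs5 > Pdgfra cells and stood slightly under Lama2 in the other cells. The order in the other cells depends on the length used: per kb of the longest transcript Lama4 stood above Lama2 there too, at 64.8 CPM for Lama4 and 59.1 CPM for Lama2. Lama5 made up 8.71% in the Rgs5 > Pdgfra cells and 16.9% in the other cells. Lama1, a chain best known from the early embryo, made up 2.52% in the Rgs5 > Pdgfra cells and 14.6% in the other cells, and Lama2 made up 30.9% in the Rgs5 > Pdgfra cells and 34.6% in the other cells. Among beta chains Lamb2 held 43.3% in the Rgs5 > Pdgfra cells and 30.99% in the other cells, and the ratio of Lamb1 to Lamb2 per kb was 1.26 in the Rgs5 > Pdgfra cells and 2.19 in the other cells. The share of Lamc1 among gamma chains was near equal, at 90.4% in the Rgs5 > Pdgfra cells and 90.8% in the other cells. The ratio of Nid1 to Nid2 per kb was 5.73 in the Rgs5 > Pdgfra cells and 11.2 in the other cells.

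**Figure D2:**
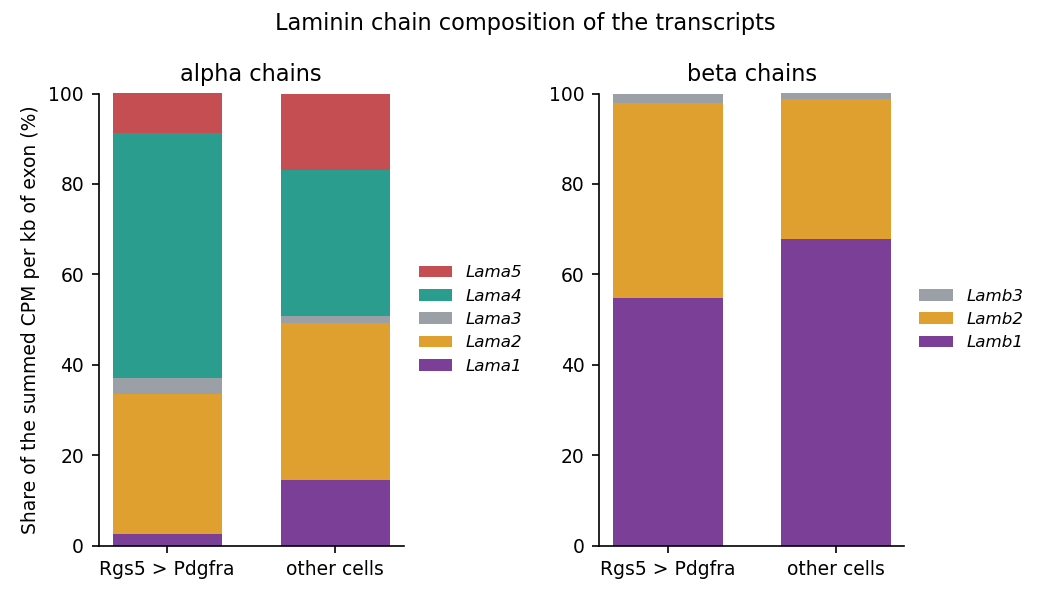
Stacked bars show the share (%) of each laminin alpha and beta chain in the summed CPM per kb of exon of its class, for the Rgs5 > Pdgfra cells (left) and the other cells (right). In the Rgs5 > Pdgfra cells Lama4 takes 54.2% of the alpha chains and Lamb2 43.3% of the beta chains, against 32.3% of the alpha chains and 30.99% of the beta chains in the other cells.

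Cell by cell, the leading alpha chain among Lama2, Lama4 and Lama5 per kb was Lama4 in 75.4% of the Rgs5 > Pdgfra cells (68.8 to 81.1) and in 44.7% of the other cells (38.6 to 51.1). Lama2 led in 20.7% of the Rgs5 > Pdgfra cells (15.3 to 26.9) and 40.1% of the other cells (34.0 to 46.3). Lama5 led in 8 of the Rgs5 > Pdgfra cells (3.94%, 1.72 to 7.62) and 39 of the other cells (15.2%, 11.02 to 20.2). Both sets thus held cells led by each of the 3 chains, in different proportions. At equal depth Lama4 led in 77.8% of the Rgs5 > Pdgfra cells and 46.5% of the other cells. Lamb1 stood above Lamb2 per kb in 65.5% of the Rgs5 > Pdgfra cells (58.5 to 72.0) and 84.4% of the other cells (79.4 to 88.6), and Nid1 stood above Nid2 in 459 of the 460 cells.

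All chains needed for the trimers built on Lama2 or Lama4 were counted together in nearly every thinned cell: Lama2, Lamb1 and Lamc1 in 97.3%, and Lama4, Lamb1 and Lamc1 in 97.8%. Lama5, Lamb1 and Lamc1, the chains of a main laminin of adult lung and vessels, were counted together in 54.4% of the thinned Rgs5 > Pdgfra cells (46.6 to 62.0) and 81.5% of the thinned other cells (76.0 to 86.2). Before thinning the shares were 58.1% of the Rgs5 > Pdgfra cells and 86.4% of the other cells. Transcripts of all 10 members were counted in 43.9% of the thinned Rgs5 > Pdgfra cells (36.3 to 51.6) and 56.4% of the thinned other cells (49.9 to 62.7).

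Between the cell sets, Agrn, Nid2 and Lamb2 were at least 1.5-fold higher in the Rgs5 > Pdgfra cells, Lama5 was at least 1.5-fold lower, and the other 6 members differed by less. Over the 9832 genes of at least 10 CPM, 7.75% were at least 1.5-fold higher and 9.49% at least 1.5-fold lower. The median fold was 1.09 over the members and 1.01 over these genes. Folds are ratios of CPM over summed counts, Rgs5 > Pdgfra cells over other cells, with exact 95% intervals that cover counting error only and not the difference between cells or mice.

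Among the alpha chains, Lama5 spanned 0 to 1228 CPM (median 13.0) in the Rgs5 > Pdgfra cells and 0 to 1201 CPM (median 102) in the other cells. The ranges coincided, but the median cells lay far apart. Summed, it stood at 82.0 CPM in the Rgs5 > Pdgfra cells and 194 CPM in the other cells, a fold of 0.423 (0.398 to 0.449), and 3.25% of genes compared lay at or under this fold. At equal depth it was counted in 55.0% of the Rgs5 > Pdgfra cells (47.2 to 62.6) and 83.1% of the other cells (77.8 to 87.6). Its part of the Rgs5 > Pdgfra level came from few cells: 20 of the 203 held 74.0% of its counts. Those 20 cells had a median of 819 CPM of Rgs5, against 5336 CPM in the other 183. Their summed pericyte markers, Rgs5 among them, had a median of 2886 CPM, against 12377 CPM. Their median depth was 108206 counts, against 76098, but the 20 cells were picked by Lama5 counts not scaled for depth, which favours deeper cells. Their median Pdgfra level was 225 CPM, against 262 CPM in the other 183, and their summed fibroblast markers had a median of 4941 CPM, against 4720 CPM. Summed epithelial markers had a median of 1078 CPM in the 20 cells and 713 CPM in the other 183, and immune markers 124 CPM in the 20 cells and 71.4 CPM in the other 183. The fold moved with the cells included, to 0.189 in the columns lacking Sftpc, 0.512 in the other columns and 0.263 without the 5% of cells with the most counts. It was 0.217 where the cells were split by summed pericyte and fibroblast markers, Rgs5 and Pdgfra among them, instead. In each of these it was past the 1.5-fold limit.

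Lama4, whose protein lacks the short arm that other alpha chains use to polymerise and is typical of vessel walls, spanned 20.4 to 2797 CPM (median 504) in the Rgs5 > Pdgfra cells and 0 to 1695 CPM (median 355) in the other cells. Most of the range was shared, with the higher values in the Rgs5 > Pdgfra cells. Its sums of 541 CPM in the Rgs5 > Pdgfra cells and 392 CPM in the other cells gave a fold of 1.38 (1.34 to 1.42). It reached 1.62 among cells at least 4-fold apart in Rgs5 and Pdgfra, past the 1.5-fold limit, and was 1.18 in the columns lacking Sftpc. Lama2, the chain of muscle and peripheral nerve whose human gene is mutated in a congenital muscular dystrophy, spanned 6.81 to 3235 CPM (median 359.5) in the Rgs5 > Pdgfra cells and 8.89 to 3051 CPM (median 473) in the other cells. The ranges were nearly the same. The sums of 418 CPM in the Rgs5 > Pdgfra cells and 568 CPM in the other cells gave a fold of 0.735 (0.714 to 0.756).

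Of the beta chains, Lamb2, the chain of the kidney filter and the neuromuscular junction, spanned 0 to 1431 CPM (median 217) in the Rgs5 > Pdgfra cells and 0 to 535 CPM (median 122) in the other cells. The sets overlapped up to 535 CPM, above which only Rgs5 > Pdgfra cells were found. Sums of 241 CPM in the Rgs5 > Pdgfra cells and 137 CPM in the other cells gave a fold of 1.76 (1.69 to 1.85). Lamb1 spanned 0 to 1354 CPM (median 488) in the Rgs5 > Pdgfra cells and 0 to 1203 CPM (median 478) in the other cells, and its sums gave a fold of 1.02 (0.990 to 1.05). Lamc1 spanned 116 to 2620.5 CPM (median 999) in the Rgs5 > Pdgfra cells and 47.2 to 2983 CPM (median 1061) in the other cells, with a fold of 0.945 (0.927 to 0.962). The sets lay over each other for both of these chains.

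The nidogens differed in fold. Nid2 spanned 0 to 1352 CPM (median 166) in the Rgs5 > Pdgfra cells and 0 to 814 CPM (median 31.6) in the other cells. The sets overlapped over the lower part of the range, and the median cell was higher in the Rgs5 > Pdgfra cells. Sums of 232 CPM in the Rgs5 > Pdgfra cells and 107 CPM in the other cells gave a fold of 2.17 (2.07 to 2.28). At equal depth it was counted in 84.2% of the Rgs5 > Pdgfra cells (77.9 to 89.3) and 73.3% of the other cells (67.2 to 78.7). Nid1 spanned 47.7 to 3970 CPM (median 1781) in the Rgs5 > Pdgfra cells and 197 to 5762 CPM (median 1573) in the other cells, with a broad overlap. Its sums of 1781 CPM in the Rgs5 > Pdgfra cells and 1604 CPM in the other cells gave a fold of 1.11 (1.09 to 1.13).

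Of the proteoglycans, Agrn, which ties laminin to dystroglycan and clusters acetylcholine receptors at the neuromuscular junction, spanned 0 to 1107 CPM (median 322) in the Rgs5 > Pdgfra cells and 0 to 1959 CPM (median 148) in the other cells. The highest cell lay among the other cells, although the median of the Rgs5 > Pdgfra cells was higher. Sums of 403 CPM in the Rgs5 > Pdgfra cells and 179 CPM in the other cells gave a fold of 2.26 (2.17 to 2.34), and 96.8% of genes compared lay at or under it. Hspg2, the perlecan gene, spanned 0 to 2152 CPM (median 559) in the Rgs5 > Pdgfra cells and 0 to 2213 CPM (median 500.3) in the other cells. The sets overlapped nearly in full, and its sums of 671 CPM in the Rgs5 > Pdgfra cells and 628 CPM in the other cells gave a fold of 1.07 (1.04 to 1.10).

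Since most marker sums of other cell types were higher in the Rgs5 > Pdgfra cells, the folds were also computed without the 165 cells that were in the richest 10% for any of the endothelial, epithelial, immune, mesothelial or Schwann lists, a choice made after seeing the data. The 140 Rgs5 > Pdgfra cells and 155 other cells that remained gave folds of 2.32 for Agrn, 1.89 for Nid2, 1.74 for Lamb2, 1.36 for Lama4, 1.27 for Hspg2, 0.804 for Lama2 and 0.273 for Lama5. The same 3 members were past the limit upward and the same 1 downward. Within the columns lacking Sftpc the folds were 1.85 for Agrn, 2.08 for Nid2 and 1.56 for Lamb2, and within the other columns 2.41, 2.20 and 1.84.

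**Figure D3:**
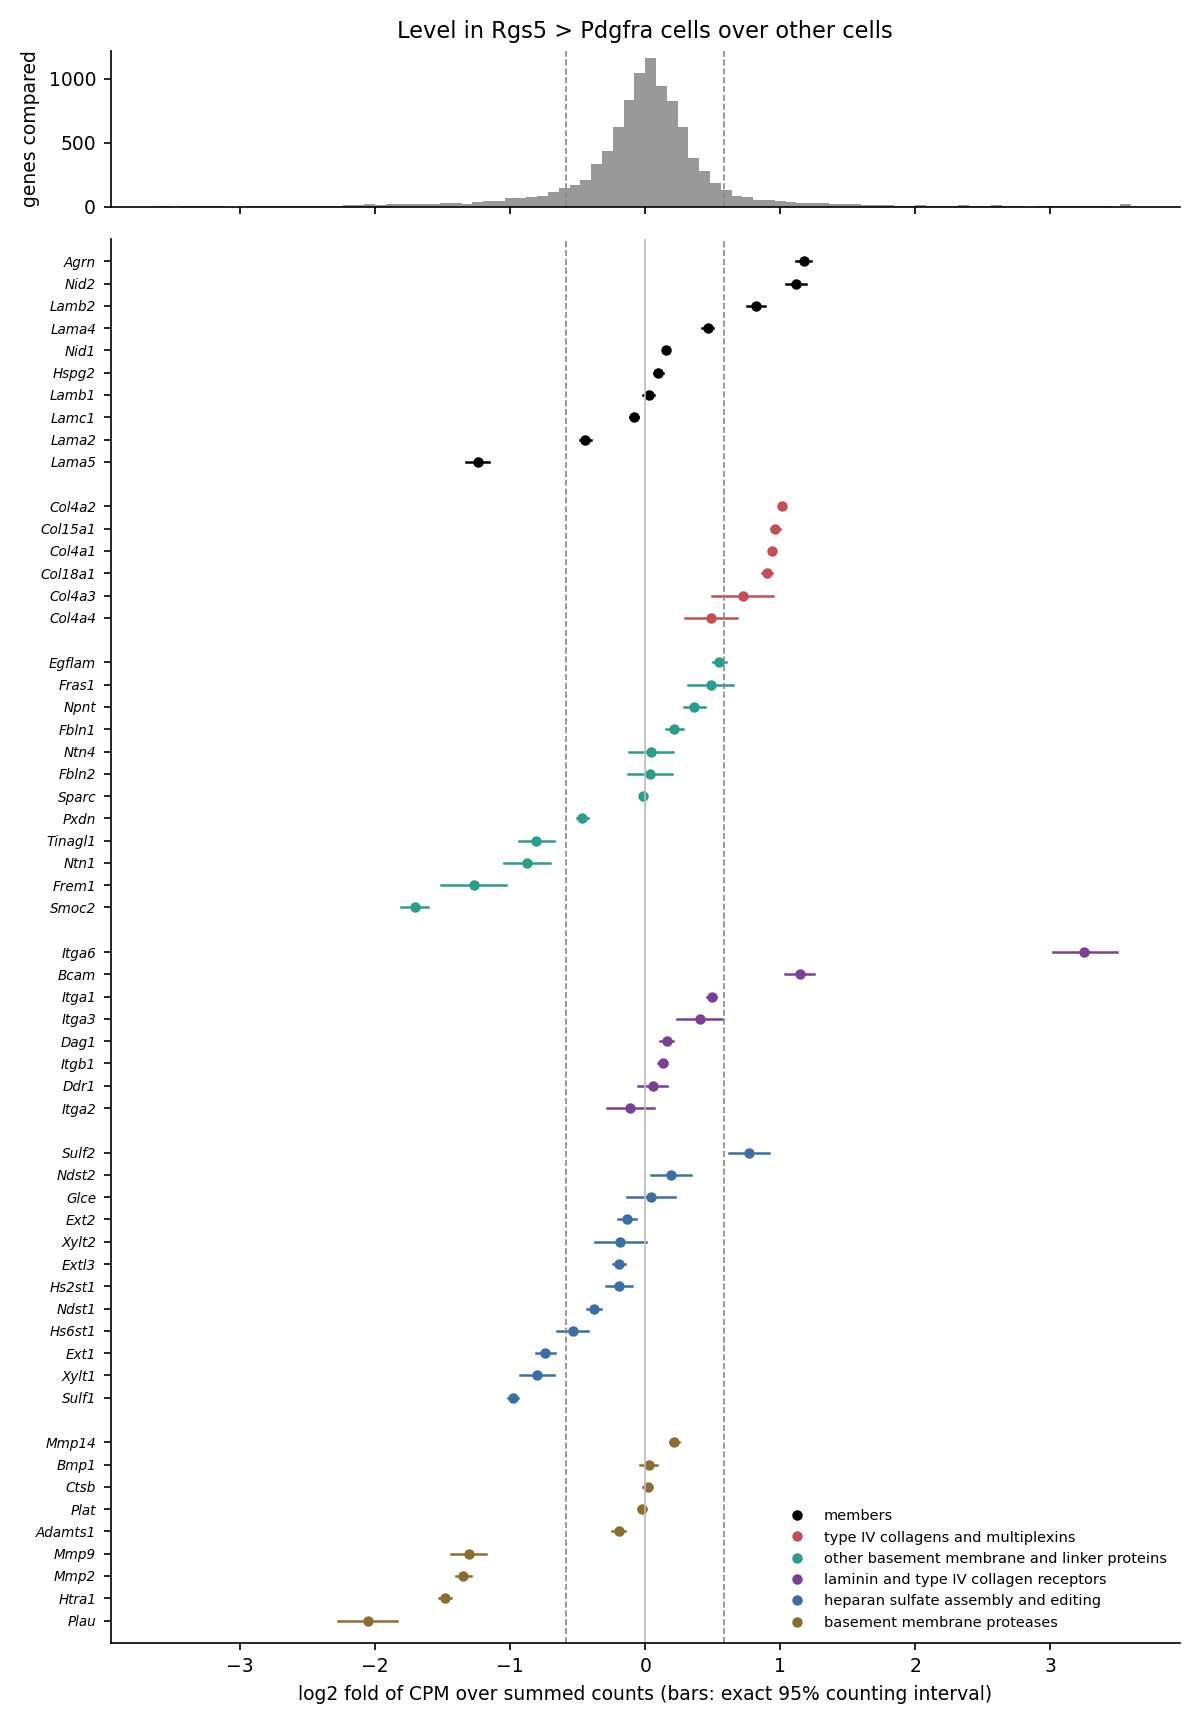
Points are log2 folds of CPM, Rgs5 > Pdgfra cells over other cells, for the 10 members and 5 other lists of basement membrane genes, with exact 95% counting intervals; the histogram above shows the 9832 genes compared, with values beyond 3.6 placed at 3.6, and dashed lines mark 1.5-fold. Agrn, Nid2 and Lamb2 lie right of the line at 1.17, 1.12 and 0.82, and Lama5 lies left of it at -1.24.

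Ordered by the share of Rgs5 in the Rgs5 plus Pdgfra counts and cut into 5 groups of 92 cells, the members differed in course. Agrn stood at 159, 181, 235, 364 and 453 CPM from the lowest to the highest share, and Lama4 at 363, 385, 428, 506 and 620 CPM, each higher at every step. Lamb2 (138, 132, 153, 212 and 280 CPM) and Nid2 (110, 90.8, 139, 158 and 321 CPM) were lowest in the second group and highest in the last. Lama5 stood at 269, 176, 104, 127 and 33.8 CPM, and the fourth group was above the third in the sum although not in the median cell (17.9 against 50.3 CPM). Lama2 took most of its step early, at 643, 596, 438, 391 and 434 CPM. Lamb1 stayed between 442 and 517 CPM, Lamc1 between 1017 and 1192 CPM, and Hspg2 (599 to 754 CPM) and Nid1 (1483 to 2016 CPM) were highest in the last group.

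**Figure D4:**
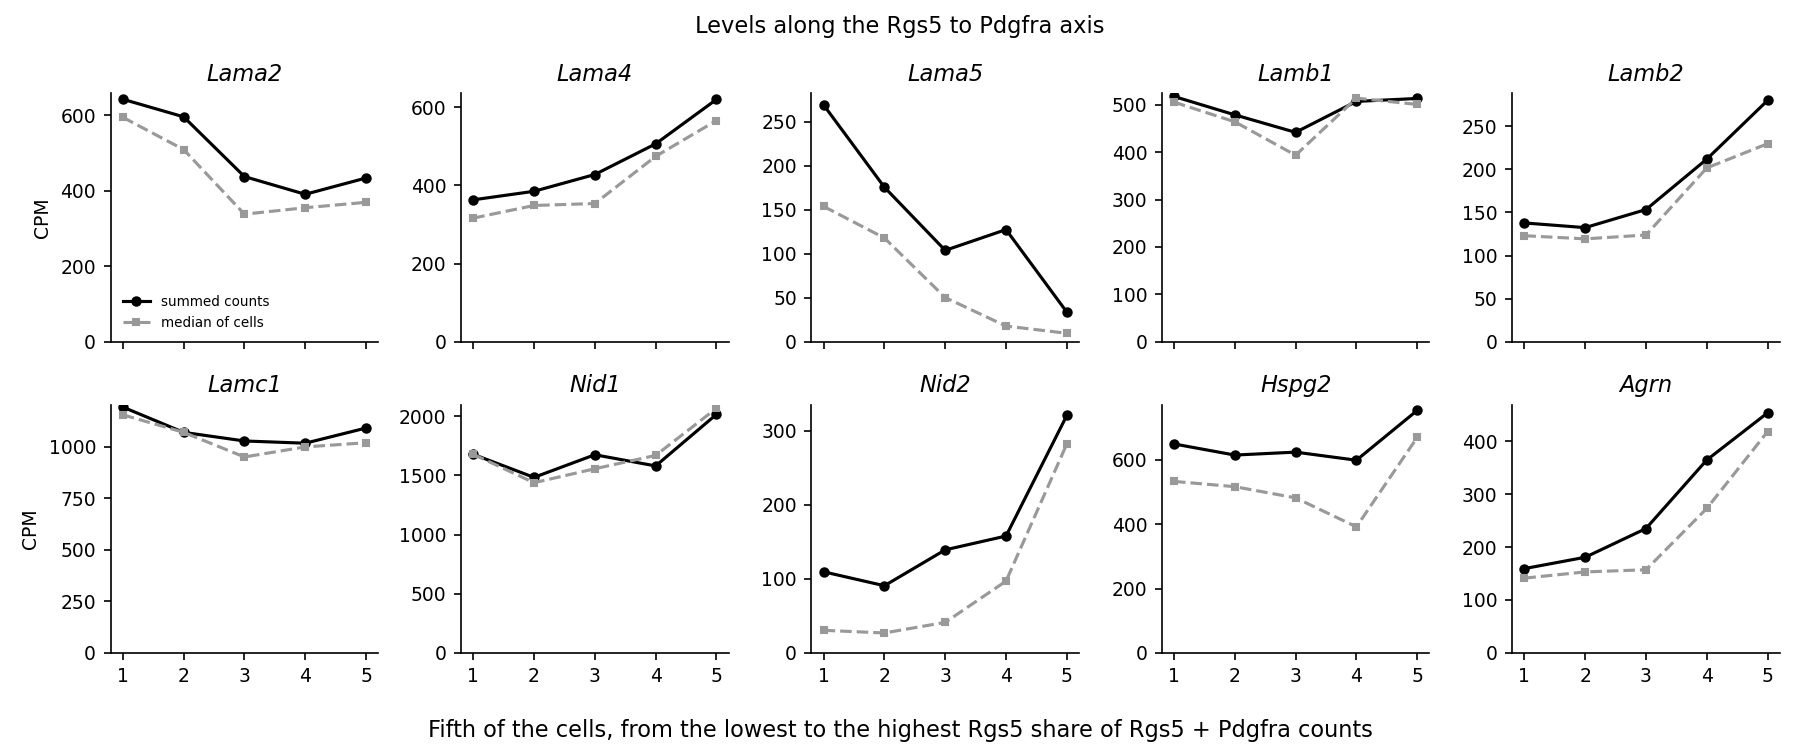
Each panel gives 1 member's CPM on a linear axis from 0, over 5 groups of 92 cells ordered by the share of Rgs5 in the Rgs5 plus Pdgfra counts, as summed counts (black) and as the median cell (grey). Agrn climbs to 453 CPM in the last group and Lama5 ends at 33.8 CPM, while Lamb1 and Lamc1 are nearly flat.

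Over the 460 cells most pairs of members had weak positive correlations. The median Spearman correlation of the 45 pairs was 0.150, with 38 pairs above 0. Over all pairs of the 2364 genes counted in at least 90% of cells it was 0.0126, and 56.9% of those pairs were above 0. Of these background pairs, 5.42% exceeded the members' median. The background was not matched for level, and Lama5 (counted in 74.6% of cells) and Nid2 (81.5%) would not enter it. All values come from the same cells and share each cell's depth, and the median was 0.148 given total counts. The closest pair was Lamb1 with Lamc1, chains that join in the same trimers, at 0.428, then the nidogens Nid1 with Nid2 at 0.423, Nid2 with Agrn at 0.397, Lama2 with Lamc1 at 0.367 and Lama4 with Agrn at 0.362. Lama5 gave the lowest values, at -0.263 with Nid2, -0.217 with Lama4 and -0.197 with Nid1 and with Agrn.

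Since several members differ in level between the cell sets, the correlations were also taken within each. The median was 0.218 in the Rgs5 > Pdgfra cells (37 of 45 pairs above 0), where 2.005% of the background pairs exceeded it and 55.7% were above 0. In the other cells it was 0.0755 (38 of 45 pairs above 0), where 24.2% of the background pairs exceeded it and 56.1% were above 0. Nid1 with Nid2 stood at 0.504 in the Rgs5 > Pdgfra cells and 0.311 in the other cells, and Nid2 with Agrn at 0.431 in the Rgs5 > Pdgfra cells and 0.164 in the other cells. Nid1 stood at 0.355 with Lama2 and 0.403 with Lamb1 in the Rgs5 > Pdgfra cells, against 0.0359 and 0.0747 in the other cells. Lamb1 with Lamc1 had the opposite order, 0.333 in the Rgs5 > Pdgfra cells and 0.501 in the other cells. Lama2 with Lamc1 was alike in both, at 0.363 in the Rgs5 > Pdgfra cells and 0.369 in the other cells. Lama5 with Lamb1 changed sign, at -0.201 in the Rgs5 > Pdgfra cells and 0.190 in the other cells. Hspg2 had a median correlation of 0.0702 over its 9 pairs in all cells, and its correlation with Nid2 was 0.242 in the Rgs5 > Pdgfra cells and -0.0916 in the other cells.

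**Figure D5:**
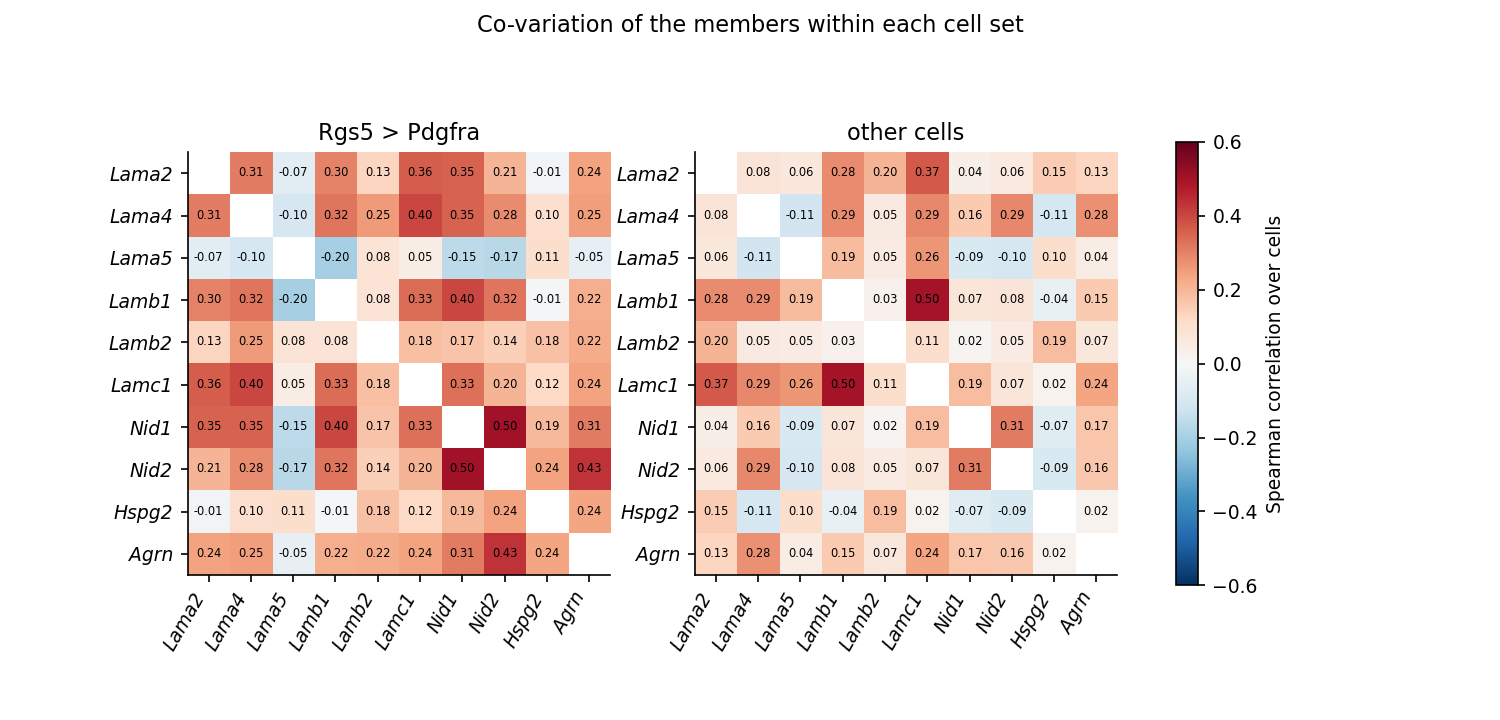
Squares give the Spearman correlation of each pair of members over cells, in the 203 Rgs5 > Pdgfra cells (left) and the 257 other cells (right), red above 0 and blue below. Nid1 with Nid2 reaches 0.50 on the left and Lamb1 with Lamc1 reaches 0.50 on the right, and Lama5 holds most of the blue squares on the left.

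Among 7044 genes counted in at least 50% of the cells, those closest to the mean z score of the 10 members included the type IV collagen genes Col4a1 (0.604) and Col4a2 (0.574), followed by Pde5a (0.519), which encodes a cyclic GMP phosphodiesterase, the pericyte adhesion gene Mcam (0.496), Gucy1a3 (0.495) and Gucy1b3 (0.451), which encode the subunits of the nitric oxide receptor, the laminin and collagen receptor genes Itgb1 (0.480) and Itga1 (0.448), and Pcdh18 (0.479). Within the sets Col4a1 reached 0.645 in the Rgs5 > Pdgfra cells and 0.478 in the other cells. At the other end stood the ferritin gene Fth1 (-0.425), Gm6977 (-0.375), the chemokine gene Cxcl12 (-0.354), Mgst1 (-0.342) and Apoe (-0.340).

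Single members had different nearest genes. Nid1 was closest to Col4a1 (0.536), Col4a2 (0.484) and Sept11 (0.478), and Nid2 to Col4a1 (0.489), the gap junction gene Gjc1 (0.467) and Gucy1a3 (0.456). Agrn was closest to Pdzd2 (0.591), Gucy1a3 (0.580) and Col4a1 (0.561), and Lama4 to the endothelin receptor gene Ednra (0.518), Gucy1a3 (0.506) and Notch3 (0.501). The neighbours of Lamb2 were the pericyte genes Cspg4 (0.433) and Mcam (0.429) and Cbfa2t3 (0.418), but within the other cells these were 0.134, 0.106 and 0.172. Of the laminin members, Lama2, Lamb1 and Lamc1 had another laminin chain among their 3 nearest genes, and Lama4, Lama5 and Lamb2 had none. Lama2 was closest to Lamc3 (0.419), Lamc1 (0.367) and the Hedgehog receptor gene Ptch1 (0.359), and Lamb1 to Lamc1 (0.428), Egflam (0.378) and Pde5a (0.372). Lamc1 was closest to Lamb1, the matrix peroxidase gene Pxdn (0.424) and the hemicentin gene Hmcn1 (0.395). Lama5 was closest to the prostaglandin synthase gene Ptgs1 (0.470), the growth factor receptor gene Fgfr2 (0.436) and Igf1 (0.397), which stood at 0.192, 0.228 and 0.0264 in the Rgs5 > Pdgfra cells and 0.458, 0.314 and 0.378 in the other cells. Over all cells Hspg2 had the weakest neighbours, Itgb5 (0.321), Cryab (0.305) and Lrp1 (0.292). These stood at 0.113, 0.359 and 0.195 in the Rgs5 > Pdgfra cells and 0.490, 0.262 and 0.387 in the other cells.

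The type IV collagens, which form the second network of the basement membrane, and the related multiplexins were higher in the Rgs5 > Pdgfra cells in 5 of the 6 genes compared, none was at least 1.5-fold lower, and 2 of the 8 were under the floor. Col4a1 stood at 2701 CPM in the Rgs5 > Pdgfra cells and 1409 CPM in the other cells (fold 1.92, 1.89 to 1.94), and Col4a2 at 2231 CPM in the Rgs5 > Pdgfra cells and 1106 CPM in the other cells (2.02, 1.99 to 2.05). The multiplexin genes Col15a1 and Col18a1 had folds of 1.95 and 1.87. Col4a3 had a fold of 1.65, at 19.9 CPM in the Rgs5 > Pdgfra cells and 12.1 CPM in the other cells, but of 0.470 without the cells rich in markers of other cell types. Col4a4 was within the limit at 1.40 and stood at 0.728 without those cells, and the median fold of the list was 1.89.

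Among laminin chain genes outside the set of 10, Lama1 and Lamc3 were lower and Lama3 was higher in the Rgs5 > Pdgfra cells. Lama1 stood at 20.2 CPM in the Rgs5 > Pdgfra cells and 142 CPM in the other cells (fold 0.142, 0.127 to 0.159), and Lamc3 at 36.7 CPM in the Rgs5 > Pdgfra cells and 72.7 CPM in the other cells (0.504, 0.460 to 0.553). Lama3 stood at 32.3 CPM in the Rgs5 > Pdgfra cells and 16.3 CPM in the other cells, a fold of 1.99. Few cells carried it in either set. The richest 20 Rgs5 > Pdgfra cells held 96.9% of the Lama3 counts there, and the richest 26 other cells held 96.6% in theirs. Its correlation with the summed epithelial markers was 0.371. Without the cells rich in other markers the fold of Lama3 was 1.01, that of Lama1 0.134 and that of Lamc3 0.597. Lamb3, at 8.12 CPM over all cells, was under the floor.

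Among 12 compared genes for other basement membrane and linker proteins, none was at least 1.5-fold higher and 4 were lower. These were Smoc2 (54.9 CPM in the Rgs5 > Pdgfra cells and 179 CPM in the other cells, 0.306), Frem1 (0.415), the netrin gene Ntn1 (0.546) and Tinagl1 (0.572), with Ntn1 at 1.06 and Frem1 at 0.168 without the cells rich in other markers. The most abundant of the list were Sparc, a collagen chaperone (fold 0.987), Pxdn, which cross-links type IV collagen (0.724), and Egflam, a dystroglycan ligand (1.46, and 1.53 without those cells). The median fold of the list was 1.01, as over all genes compared.

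Receptors for laminin and type IV collagen held 2 higher and no lower genes of 8 compared, with a median fold of 1.22. Itga6, the alpha subunit of laminin-binding integrins, was 63.6 CPM in the Rgs5 > Pdgfra cells and 6.67 CPM in the other cells (fold 9.54, 8.11 to 11.3). The richest 20 Rgs5 > Pdgfra cells held 72.1% of its counts there, and the richest 26 other cells held 81.9% in theirs. The fold was 15.3 without the cells rich in other markers. Bcam, a receptor for Lama5 laminins, was 98.5 CPM in the Rgs5 > Pdgfra cells and 44.6 CPM in the other cells (2.21). Of its counts in the Rgs5 > Pdgfra cells, 20 cells held 70.0%, and of those in the other cells, 26 cells held 57.9%. Its correlation with the summed epithelial markers was 0.253, and its fold was 1.69 without the cells rich in other markers. The most abundant receptor genes were within the limit, with folds of 1.09 for Itgb1, 1.41 for Itga1 and 1.12 for the dystroglycan gene Dag1.

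Of 7 genes compared in the dystrophin complex, which links dystroglycan to the cytoskeleton, Dmd was higher (44.7 CPM in the Rgs5 > Pdgfra cells and 27.5 CPM in the other cells, 1.62) and Sspn lower (56.5 CPM in the Rgs5 > Pdgfra cells and 93.3 CPM in the other cells, 0.606). Its most abundant genes, Utrn (fold 1.37), Sgce (0.901) and Sntb2 (1.14), were within the limit. Of the 8 genes that put on dystroglycan the sugars that laminin and agrin bind, only Pomk passed the limit (25.1 CPM in the Rgs5 > Pdgfra cells and 39.8 CPM in the other cells, 0.629), and its fold was 0.745 without the cells rich in other markers. Pomt2 (0.989) was among the most abundant there. The median fold was 1.30 over the dystrophin complex and 1.03 over these 8 genes.

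Genes that build or edit the heparan sulfate chains of perlecan and agrin held 1 higher and 3 lower of 12 compared, with a median fold of 0.876. The lower genes were Sulf1, an extracellular sulfatase (443 CPM in the Rgs5 > Pdgfra cells and 872 CPM in the other cells, 0.508), Xylt1, which starts the chains (0.574), and Ext1, which extends them (0.598). Sulf2, a relative of Sulf1, was higher, at 47.1 CPM in the Rgs5 > Pdgfra cells and 27.7 CPM in the other cells (1.70), but at 1.14 without the cells rich in other markers. The abundant Extl3 (0.876) and Ndst1 (0.767) were within the limit.

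Of 9 compared proteases that act on basement membrane proteins or on each other, none was higher and 4 were lower: Plau (11.9 CPM in the Rgs5 > Pdgfra cells and 49.4 CPM in the other cells, 0.241), Htra1 (0.357) and the type IV collagenase genes Mmp2 (0.393) and Mmp9 (0.404). Without the cells rich in other markers these folds were 0.234, 0.363, 0.527 and 0.304. Plat (0.984), Ctsb (1.01) and Mmp14 (1.16), the most abundant of the list, were within the limit. The part that other cell types, depth or the columns lacking Sftpc had in any of these differences was not tested beyond the values given.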

How the data were processed

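Single-cell RNA-seq was processed by the authors with STAR, HTSeq and the mm10 build, per the submitters' processing notes, without versions or settings. Libraries were made by sonication and ligation, per the labels' protocols. The deposited unit is molecular barcode counts, whole numbers for 48440 genes in 460 columns, each 1 cell; the step from reads to barcode counts is not given in the sources used here. Of genes sharing 1 of 113 repeated symbols, the one with the highest total was used under that name.

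The 10 genes, the gene lists and the cell split were chosen with earlier results of these data known. From the counts were computed CPM (summed counts scaled to 1000000), folds, shares, and Spearman correlations of log values of counts scaled to 10000 per cell, using scipy 1.17.1 and pandas 2.3.3 with numpy 2.4.6 in Python 3.11.15, and matplotlib 3.10.9 for plots. Exact 95% intervals for CPM (Poisson) and folds (conditional binomial) cover counting error only. Those for shares of cells (Clopper-Pearson) treat the cells as independent draws and do not cover the difference between mice. A fold of at least 1.5 in either direction was the limit, among 9832 genes of at least 10 CPM. No cell was filtered out and doublets were kept, with no caller run. Variation, joint detection and detection compared between the cell sets were taken after drawing 56586 counts (10th percentile of depth) from every cell, which drops 46 cells below it (32 Rgs5 > Pdgfra cells and 14 other cells). Exon lengths came from GENCODE vM21, which matched 48058 gene identifiers. A column lacks Sftpc if, of its 20 neighbours in the table, over 50% hold less than 30 CPM of Sftpc. Fold and correlation steps were tested on simulated data.

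The text names the 10 members, list genes past the limit and the 3 most abundant of each list, the 10 highest and 5 lowest correlates of the members' mean z score, and the 3 genes closest to each member. All 83 list genes were measured; a few items that these rules would name, and the mouse strain, are not reported here.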

Additional observations from a re-analysis of the deposited data

How the results depend on the processing

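Members at least 1.5-fold higher in the Rgs5 > Pdgfra cells numbered 3 in each alternative except 2 of them, with 4 where only cells at least 4-fold apart in Rgs5 and Pdgfra were kept (Lama4 added at 1.62) and 2 at a fold limit of 2 (without Lamb2), and 1 member was lower in each. The share of genes past 1.5-fold was 17.2% and moved to 27.4% at a floor of 1 CPM. The share of Lama2 among alpha chains (33.3%) was 34.7% with the longest transcript, 41.5% without length correction, 34.4% as a mean of cells, 34.1% without the 5% of cells with the most counts, 36.6% in columns lacking Sftpc and 32.4% in the other columns. That of Lama4 (40.0%) was 48.9%, 36.8%, 41.9%, 42.0% and 41.5% under the first 5 of these. That of Lama5 (14.0%) was 8.59%, 12.2%, 12.7%, 13.0%, 11.8% and 14.7%. The median correlation (0.150) was 0.128 on thinned counts, 0.137 by Pearson, 0.218 in the Rgs5 > Pdgfra cells, 0.0755 in the other cells, 0.189 in columns lacking Sftpc and 0.135 without the 5% of cells with the most counts. The cause of these moves was not tested. No paired analysis was possible because the labels give 1 group and no replicate numbers. Lama5 and Nid2 were counted in the fewest cells, 74.6% and 81.5%, and at equal depth in 71.5% and 77.8%. With all cells as 1 sample, the difference between mice could not be estimated.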
